A study of Caenorhabditis elegans with 8 samples.

Results

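Cholesterol deprivation of fed worms was studied as 2 arrays of fed worms raised without cholesterol against 2 arrays of fed worms given it, which were 4 of the 8 arrays of the series. The arrays were chosen by their titles alone. The other 4 arrays came from fasted worms, 2 given cholesterol and 2 deprived, and served to estimate the spread and to ask where the effect of deprivation differed with feeding. All 8 samples were day 4 adults of Caenorhabditis elegans strain N2, the laboratory wild type. Deprivation began at hatching. All groups, controls included, also went onto FUDR plates once they were young adults. FUDR inhibits DNA synthesis and stops the production of progeny. The fast was given 2 different lengths in the labels, so none is assumed. The 2 replicates of a group are described as independent, with no culture or day named. A p-value here sets a difference against the spread between replicate arrays, pooled over the fed and the fasted groups.

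Worms cannot make sterols and take cholesterol from their food. It is carried through the body by lipoproteins and Niemann-Pick type C proteins. The enzymes DAF-36 and DAF-9 turn part of it into dafachronic acids, steroid hormones that bind the nuclear receptor DAF-12 and act on development, fat and lifespan. Insulin-like signalling holds back DAF-16, the FOXO transcription factor whose targets serve stress resistance and long life. The title of the series names cholesterol, DAF-16 and lifespan after fasting, so the fed comparison asks what deprivation alone did to the transcripts.

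Each array gave 1 RMA-normalised intensity per probe set, and values below are log2(intensity + 1), compared only within a gene, since probe sets differ in brightness. A gene rose or fell where limma's adjusted p, by Benjamini-Hochberg over 22548 probe sets, was under 0.05. Replicate arrays correlated at 0.992 to 0.994 over probe sets, and fed arrays that differed in cholesterol at 0.984 to 0.99. The median intensity of an array was 66.7 to 70.9. Whole worms were compared on arrays equalised to each other, so fewer cells of a type and less RNA per cell cannot be told apart.

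Deprivation changed 273 probe sets in fed worms, 116 of them higher and 157 lower, which was 1.21% of those tested. Without adjustment 3092 of the 22548 had a limma p under 0.05. List counts at an unadjusted p under 0.05 below are to be read against that share. By gene, 98 of 17118 rose (0.572%) and the other called genes, 0.713% of all, fell. Together they were 220 genes, or 1.29%. The change was at least 2-fold for 145 of these genes and at least 4-fold for 36. Counts of called members in the lists below are to be read against the shares of all genes that rose and fell. The median change of all genes was 0.05. The deprived and the cholesterol arrays did not overlap for 48.3% of all genes, so with 2 arrays a group a gap between the groups says little by itself. The number of calls rested on the 4 fed arrays: it was 25 without the first cholesterol array, 78 without the second, 31 without the first deprived array and 77 without the second. It was 179 without either fasted array given cholesterol. Of 72 called genes that the naming rule picked, most lost the call without the first cholesterol array. All 72 kept their direction, but leaving out a fed array cannot turn it where the groups do not overlap.

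**Figure D1:**
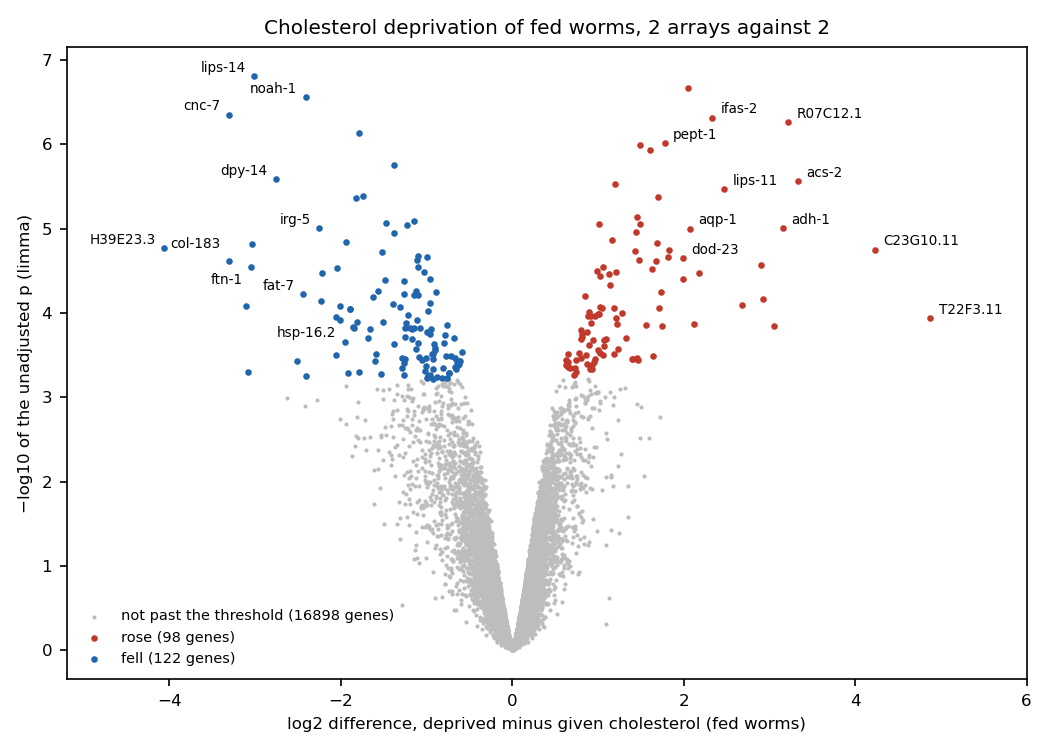
Each point is 1 of 17118 genes, with the log2 difference between deprived and cholesterol-fed worms on the x axis and −log10 of limma's unadjusted p on the y axis. The 98 genes that rose are red, led by T22F3.11 at 4.88, and those that fell are blue, led by H39E23.3 at −4.07.

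The 12 largest rises and falls were taken only from called genes whose deprived and cholesterol arrays did not overlap. Among the 12 largest rises were acs-2, an acyl-CoA synthetase that feeds fatty acids into mitochondrial oxidation, and adh-1, an alcohol dehydrogenase. For acs-2 the cholesterol arrays read 7.40 and 7.11 and the deprived arrays 10.21 and 10.96. The rise was 3.33 ± 0.26, or 10.1-fold, with an adjusted p of 0.0044. Here and below ± gives limma's SE of a difference of 2 against 2 arrays, with the spread taken from all 8 arrays. Both deprived arrays stood far above both cholesterol arrays, and the second acs-2 probe set rose by 3.56. For adh-1 the values went from 8.53 and 8.36 to 11.54 and 11.67, a rise of 3.16 ± 0.30 with an adjusted p of 0.0063. Its deprived arrays lay close together and clear of the controls.

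The largest rise of all was that of T22F3.11, from 4.69 and 4.65 to 9.14 and 9.95, by 4.88 ± 0.66 with an adjusted p of 0.021. The cholesterol values lay near the lower quartile of all log2 values, 4.69, so the gene was dim in control worms. A second probe set of T22F3.11 was higher by 3.03 and did not pass the threshold (adjusted p 0.082). C23G10.11 went from 5.02 and 5.47 to 9.36 and 9.58, a rise of 4.23 ± 0.43. R07C12.1 went from 3.98 and 3.99, below the lower quartile, to 7.46 and 6.96, a rise of 3.22 ± 0.20 with an adjusted p of 0.0017. In each of the 3 genes a low signal in control worms became a middling or bright one in deprived worms. No role is given here for these genes, which are known by their sequence names.

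Both of the next genes encode fat-handling proteins. The lipase-related gene lips-11 went from 7.29 and 7.97 to 10.11 and 10.09, a rise of 2.47 ± 0.20 with an adjusted p of 0.0048. For far-7, a fatty acid and retinol binding protein, the values went from 6.29 and 5.79 to 8.45 and 7.99, a rise of 2.18 ± 0.24. Groups did not overlap in either gene, which the choice of the largest rises required. The bestrophin best-1, of a family of chloride channels, rose by 2.92 ± 0.36, and ifas-2 by 2.33 ± 0.14. Of the remaining large rises C35C5.8 rose by 3.06, F19C7.2 by 2.90 and F46C5.1 by 2.68. Calls of acs-2, R07C12.1, lips-11 and ifas-2 stood without any 1 of the 8 arrays. Without the first cholesterol array the adjusted p was 0.155 for T22F3.11, 0.0807 for C23G10.11, 0.0625 for adh-1, 0.184 for C35C5.8, 0.136 for best-1, 0.0807 for F19C7.2 and 0.141 for F46C5.1. For far-7 it reached 0.067 without the first deprived array.

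**Figure D2:**
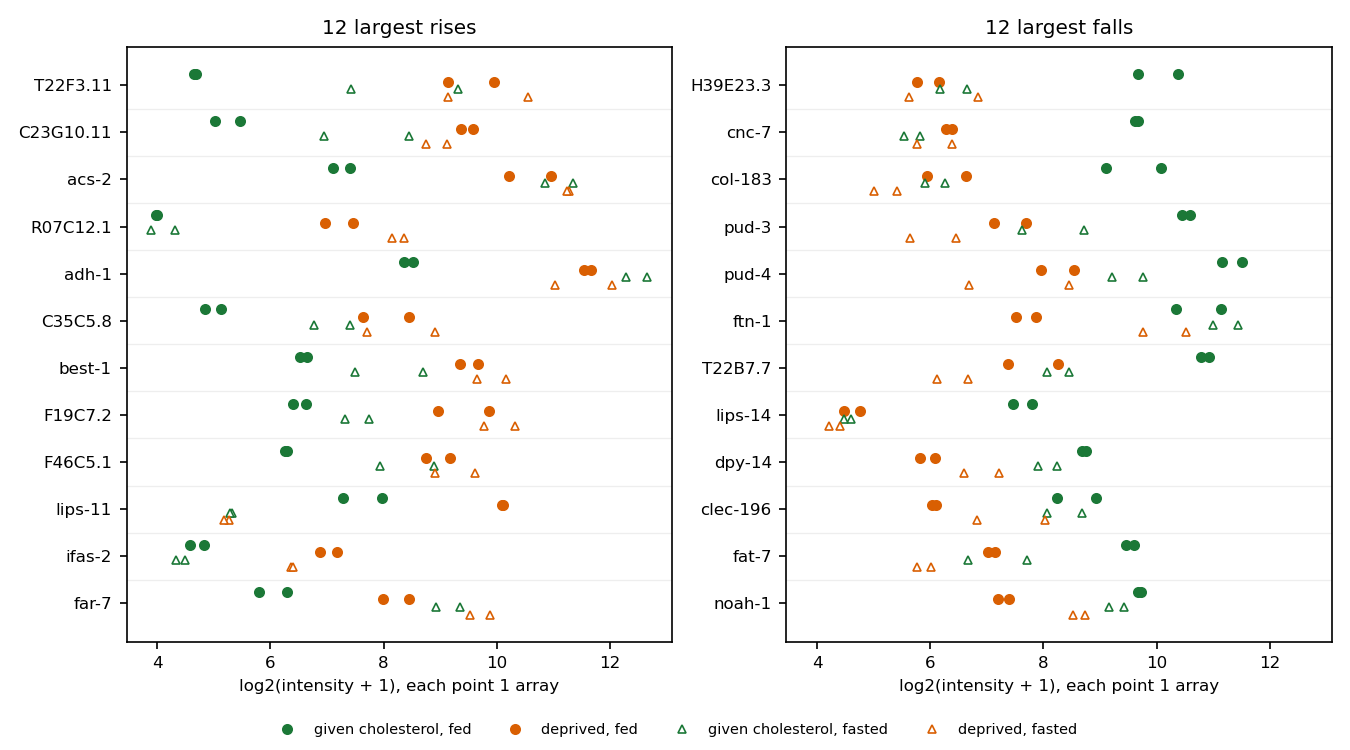
Each point is 1 array, with log2(intensity + 1) on the x axis and a row for each of the 12 genes with the largest rise (left) and the 12 with the largest fall (right). Filled circles are fed and open triangles fasted worms, green with and orange without cholesterol. Genes were taken only where the 2 orange circles lie apart from the 2 green ones, as for acs-2 at 10.21 and 10.96 against 7.40 and 7.11.

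Among the 12 largest falls were an antimicrobial peptide, 2 collagens, a ferritin and a desaturase. H39E23.3, given no role here, fell from 10.38 and 9.67 to 5.76 and 6.16, by 4.07 ± 0.41 on the log2 scale with an adjusted p of 0.0086. The caenacin cnc-7, of a family of antimicrobial peptides made by the epidermis, fell from 9.67 and 9.62 to 6.39 and 6.29. Its change was −3.31 ± 0.20, 9.92-fold lower, with an adjusted p of 0.0017. A second probe set of cnc-7 fell by 2.41. The cuticle collagen col-183 fell from 10.08 and 9.10 to 6.63 and 5.94, a change of −3.31 ± 0.35. These 3 genes were bright in control worms and lay within 2 log2 units of the lower quartile in deprived worms.

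Neighbouring genes pud-3 and pud-4, named for proteins that accumulate in daf-2 insulin receptor mutants, fell together. The values of pud-3 went from 10.44 and 10.58 to 7.69 and 7.12, and those of pud-4 from 11.51 and 11.16 to 8.54 and 7.96. The changes were −3.1 ± 0.40 and −3.08 ± 0.52. ftn-1, a ferritin that stores iron in the intestine, fell from 11.13 and 10.34 to 7.87 and 7.51, by 3.04 ± 0.33 with an adjusted p of 0.010. ftn-1 was the only one of 16 iron and haem genes to pass the test. The other ferritin, ftn-2, read 12.28 and 12.40 in control and 12.22 and 12.02 in deprived worms, a difference of −0.22 ± 0.18.

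T22B7.7 fell by 3.04 ± 0.30, and the lipase-related lips-14 changed by −3.01 ± 0.16, from 7.80 and 7.46 to 4.48 and 4.76. Its deprived arrays were near the lower quartile. The C-type lectin clec-196 fell by 2.52 ± 0.41, the collagen dpy-14 by 2.76 ± 0.21, the stearoyl-CoA desaturase fat-7 by 2.45 ± 0.30 and the matrix protein noah-1 by 2.41 ± 0.14. The calls of cnc-7, lips-14, dpy-14 and noah-1 stood without any 1 array. Without the first cholesterol array the adjusted p was 0.0739 for H39E23.3, 0.0625 for col-183, 0.132 for pud-3, 0.277 for pud-4, 0.0739 for ftn-1, 0.0703 for T22B7.7, 0.249 for clec-196 and 0.113 for fat-7.

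The genes that carry and convert cholesterol itself did not pass the test. By limma none of 17 genes of sterol uptake and transport was called, 4 had an unadjusted p under 0.05, and their median change was 0.04 against 0.05 for all genes. None of 16 genes of sterol modification and the dafachronic acid pathway was called either, with 4 at an unadjusted p under 0.05, 13 higher, 3 lower and a median of 0.17. The lowest p of both lists was that of ncr-1, which encodes a Niemann-Pick type C1 protein that moves cholesterol out of late endosomes. Its arrays read 7.02 and 7.27 with cholesterol and 7.82 and 7.76 without, a difference of 0.64 ± 0.13 with an adjusted p of 0.075. The 2 groups did not overlap, as in 48.3% of all genes, and the 95% interval was 0.34 to 0.95. Its paralog ncr-2 read 4.99 and 4.92 against 4.98 and 5.02, with an interval of −0.23 to 0.32. The other 3 genes of uptake and transport at an unadjusted p under 0.05 were lower. lrp-2, of the LDL receptor family, differed by −0.80 ± 0.19, with a dim second probe set at 0.04, the oxysterol-binding obr-2 by −0.67 ± 0.21 and the lysosomal lipase lipl-5 by −0.53 ± 0.17.

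The differences of the sterol modification list ran from −1.01 to 0.52. The lowest was that of stdh-1, a putative steroid dehydrogenase, which read 10.57 and 9.94 with cholesterol and 9.69 and 8.79 without (−1.01 ± 0.33, adjusted p 0.24). daf-36, which encodes the oxygenase that starts the pathway, read 6.50 and 6.06 with cholesterol and 6.76 and 6.36 without, and the groups overlapped. daf-9, a cytochrome P450 that makes the last step, differed by 0.18 ± 0.14 and the receptor gene daf-12 by 0.15 ± 0.10. The 95% interval was −0.25 to 0.81 for daf-36, −0.15 to 0.51 for daf-9 and −0.08 to 0.38 for daf-12, so a 2-fold change lay outside each of the 3. dhs-16, a dehydrogenase of the pathway, differed by 0.39 ± 0.14, hsd-1, a hydroxysteroid dehydrogenase, by 0.33 ± 0.14, and strm-1, a sterol methyltransferase, by 0.41 ± 0.14. The sterol-sensing nuclear receptor nhr-8 differed by 0.23 ± 0.17 and the cholesterol uptake protein chup-1 by 0.26 ± 0.12. None of these genes passed the threshold.

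In animals that make cholesterol, its loss raises the enzymes of the mevalonate pathway through the SREBP transcription factor. Worms keep the early part of that pathway for ubiquinone and protein prenylation. None of 15 mevalonate and ubiquinone genes was called by limma in fed worms, none had an unadjusted p under 0.05, and their changes lay between −0.26 and 0.18. hmgr-1, the HMG-CoA reductase, read 8.54 and 8.66 with cholesterol and 8.25 and 8.47 without, a difference of −0.24 ± 0.16. hmgs-1, the HMG-CoA synthase, differed by −0.17 ± 0.20, and sbp-1, the worm SREBP, by 0.36 ± 0.15 with an adjusted p of 0.34. The intervals of hmgr-1 and hmgs-1, −0.61 to 0.13 and −0.63 to 0.30, left out a 2-fold rise.

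**Figure D3:**
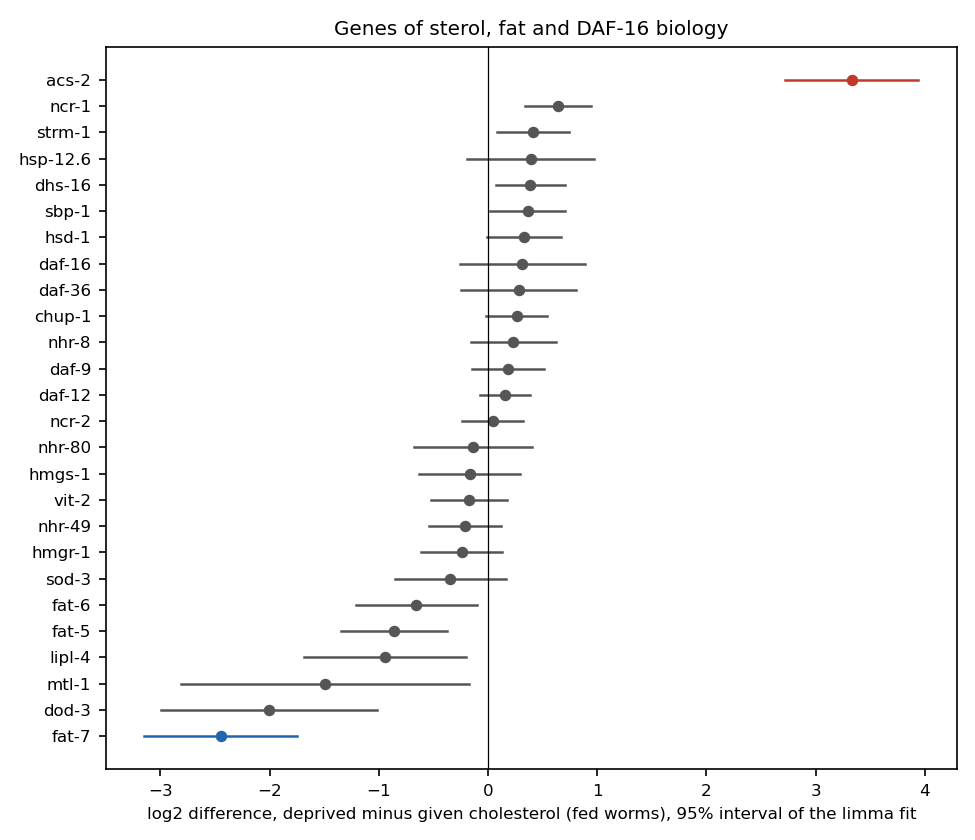
Points are log2 differences between deprived and cholesterol-fed worms for 26 genes of sterol handling, fat metabolism and the DAF-16 pathway, and bars are 95% intervals of the limma fit, not adjusted for the number of genes. Red marks acs-2, which rose by 3.33, and blue fat-7, which fell by 2.45. The other 24 genes did not pass the adjusted threshold.

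The call within fat synthesis was a desaturase. fat-7, which with fat-6 and fat-5 places the first double bond in stearic or palmitic acid, read 9.45 and 9.60 with cholesterol and 7.14 and 7.02 without. That was 5.45-fold lower, with an adjusted p of 0.015. fat-5 read 10.32 and 9.82 against 9.4 and 9.02 and fat-6 11.98 and 11.37 against 11.14 and 10.90. The differences of fat-5 and fat-6, −0.86 ± 0.21 and −0.65 ± 0.24, did not pass the test (adjusted p 0.12 and 0.28). Their arrays did not overlap, as in 48.3% of all genes. fat-7 was the single call among 22 genes of fatty acid synthesis, elongation and desaturation, with 14 of 22 lower and a median of −0.17. The receptors NHR-49 and NHR-80 act on fat-7, and nhr-49 differed by −0.21 ± 0.14 and nhr-80 by −0.14 ± 0.23.

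In fatty acid oxidation acs-2 was the 1 call among 44 genes, whose median was 0.08. Of 35 genes of triglyceride storage and lipolysis lips-11 rose and lips-14 fell, with a median of 0.04. Among 22 lipid binding and transfer genes far-7 rose and vit-1, a yolk protein that carries lipid to oocytes, fell from 11.56 and 12.04 to 10.29 and 10.30. The fall of vit-1 was 1.51 ± 0.21, while the vitellogenin gene vit-2 differed by −0.17 ± 0.15. These genes are close in sequence, so their probe sets can share signal. sptl-2, a subunit of serine palmitoyltransferase that starts sphingolipid synthesis, rose from 6.44 and 6.75 to 7.58 and 7.65, by 1.02 ± 0.13. It was the call among 22 sphingolipid genes. pmt-2, a methyltransferase of phosphatidylcholine synthesis, fell by 0.63 ± 0.10 and was the call among 23 genes of that pathway and the methionine cycle. The calls of vit-1, sptl-2 and pmt-2 were lost without the second deprived array, among others, at adjusted p of 0.137, 0.133 and 0.238.

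Genes that DAF-16 is known to activate were mostly lower in deprived fed worms, few of them past the test. Of 26 measured, ftn-1 and hsp-16.2 fell and aqp-1 rose. In all 19 of 26 were lower, and the median was −0.46 against 0.05 for all genes. The median was −0.45 after cyclic loess and −0.43 after a shift by bright probe sets. It moved to −0.22 without the first cholesterol array and to −0.19 without the second deprived array. hsp-16.2, a small heat shock protein, fell from 7.89 and 7.94 to 6.06 and 5.86, a change of −1.96 ± 0.29 with an adjusted p of 0.029. Its relative hsp-16.41 differed by −2.62 ± 0.50 without passing (adjusted p 0.065). The metallothionein mtl-1 read 11.69 and 10.57 with cholesterol and 10.30 and 8.97 without (−1.49 ± 0.56, adjusted p 0.31). dod-3 differed by −2.01 ± 0.42 (adjusted p 0.085), while the superoxide dismutase sod-3 and daf-16 itself differed by −0.34 ± 0.22 and 0.32 ± 0.24. Some of these lists share genes: aqp-1 is also an aquaporin and ftn-1 an iron gene.

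Among 17 genes that DAF-16 is known to repress, 3 rose and 2 fell. pept-1, the intestinal transporter of di- and tripeptides, rose from 6.07 and 6.12 to 7.94 and 7.80, by 1.78 ± 0.12 with an adjusted p of 0.0023. dod-23 rose from 11.18 and 11.51 to 13.44 and 13.24, above the 99th percentile of all values, 12.73. ins-7, an insulin-like peptide that activates the DAF-2 receptor, rose from 8.73 and 8.64 to 10.80 and 10.07, by 1.75 ± 0.24. fat-7 and the aspartyl protease asp-13 fell. ins-7 was the call among 24 insulin-like peptides, and none of 30 genes of insulin, TOR and AMPK signalling was called, with 2 at an unadjusted p under 0.05. Without the first cholesterol array the adjusted p was 0.193 for hsp-16.2, 0.157 for ins-7, 0.0809 for dod-23 and 0.0925 for asp-13, and limma then called 0 of the 26 activated genes. The call of pept-1 stood without any 1 array.

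Aquaporins, channels for water and glycerol, were named as a family after the values were seen. aqp-1, an aquaglyceroporin of the intestine, rose from 7.29 and 7.50 to 9.26 and 9.66, by 2.07 ± 0.19. aqp-7 rose from 8.69 and 9.10 to 10.25 and 9.99 and aqp-8 from 6.33 and 6.59 to 7.76 and 7.35. The other 7 of the 10 aquaporins did not pass, with aqp-2 at −0.84 and aqp-3 at 0.45. Without the first cholesterol array limma called none of the 10, and the adjusted p of aqp-1 was 0.0669.

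Defence genes moved both ways. Of 57 lysozymes, saposins and antimicrobial peptides 2 rose (3.51%) and 4 fell (7.02%), against 0.572% and 0.713% of all genes. The lysozyme ilys-3 rose from 6.88 and 6.56 to 9.25 and 8.44, by 2.12 ± 0.29, and the saposin-like spp-31 rose by 1.13 ± 0.13. The caenacins cnc-7, cnc-4 and cnc-2 fell, with changes of −3.31, −1.10 and −1.13, and the lysozyme lys-2 by 0.91 ± 0.14. Of 17 genes of the p38 pathway and pathogen response, 14 were lower, with a median of −0.36. The infection response gene irg-5 fell from 9.42 and 8.88 to 6.88 and 6.91, by 2.25 ± 0.21, and irg-4 fell by 1.81 ± 0.25. irg-1, another gene of infection response, rose from 5.51 and 5.76 to 7.05 and 6.65, by 1.22 ± 0.16. The kinases of the pathway, sek-1 and pmk-1, differed by −0.42 and −0.36 and were not called.

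Of 220 C-type lectins, carbohydrate-binding proteins many of which are secreted, clec-42, clec-62 and clec-10 rose and clec-196, clec-266 and clec-174 fell. That was 1.36% of the family each way, against 0.572% of all genes that rose and 0.713% that fell. The call of clec-10 had an adjusted p of 0.21 and that of clec-62 one of 0.151 without the first cholesterol array. clec-42 rose by 1.20 ± 0.10 and its call stood without any 1 array, while clec-266 fell by 2.40 ± 0.42 from 11.51 and 11.61 to 9.24 and 9.08. Aspartyl proteases, which work in the intestinal lumen and in lysosomes, were made a list after the values were seen. Among 15 of them asp-14 fell by 1.90 ± 0.25, asp-13 by 1.57 ± 0.19 and asp-8 by 1.08 ± 0.17. In the wider list of 44 lysosomal protease and proton pump genes these were the only calls. asp-17 differed by 1.72 and was not called. The calls of ilys-3, cnc-4, irg-5, irg-4, irg-1, asp-14 and asp-8 were lost without the first cholesterol array. Those of spp-31 and clec-174 were lost without either deprived array.

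Enzymes that attach groups to lipids, steroids and foreign compounds held a few calls in large families. Of 64 UDP-glucuronosyltransferases 4 fell and none rose, against 0.713% of all genes that fell, while 28 were higher and 36 lower. The largest fall was that of ugt-41, from 7.64 and 7.38 to 5.83 and 5.87, by 1.66 ± 0.23. ugt-43 fell by 1.39 ± 0.18, ugt-25 by 1.20 ± 0.17 and ugt-46 by 1.08 ± 0.15. Of 40 glutathione S-transferases gst-10 fell by 1.85 ± 0.26 and gst-42 by 0.88 ± 0.15, with 22 of the family higher and 18 lower. The short-chain dehydrogenase dhs-7 fell by 1.22 ± 0.11. Among 73 cytochromes P450 cyp-33C4 rose by 0.90 ± 0.15 and cyp-43A1 fell by 0.91 ± 0.14, and among 254 nuclear hormone receptors nhr-84 fell by 1.10 ± 0.13. Each P450 call was 1.37% of its family and the receptor call 0.394%, against 0.572% of all genes that rose and 0.713% that fell. None of 46 ABC transporters passed, with 6 at an unadjusted p under 0.05. Without the first cholesterol array the adjusted p was 0.19 for ugt-41, 0.122 for ugt-43, 0.155 for ugt-25, 0.132 for ugt-46, 0.181 for gst-10, 0.287 for gst-42, 0.0639 for dhs-7, 0.0925 for nhr-84 and 0.228 for cyp-43A1. The call of cyp-33C4 was lost without any 1 of the 8 arrays, with an adjusted p of up to 0.263.

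Single genes of the cuticle and of the matrix that lines epithelia fell, though these are adults past the last moult. Of 147 cuticle collagens col-183, dpy-14 and dpy-17 fell and none rose, and the median of the family was −0.01. These falls were 2.04% of the family, against 0.713% of all genes. An unadjusted limma p under 0.05 was reached by 12 of the 147, and by 3092 of all 22548 probe sets. dpy-14 fell from 8.69 and 8.74 to 6.09 and 5.82, and dpy-17 from 9.33 and 9.33 to 8.15 and 8.02. The zona pellucida protein noah-1, a part of the embryonic sheath and cuticle, fell from 9.73 and 9.67 to 7.39 and 7.19 with an adjusted p of 0.0016. Its second probe set fell by 1.33, and its relative noah-2 fell by 1.60 ± 0.26.

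Other apical matrix genes, singled out after their values were seen, also fell. The lipocalin lpr-3 fell by 2.01 ± 0.27, the leucine-rich repeat protein sym-1 by 2.04 ± 0.23 and the fibrillin-like fbn-1 by 1.90 ± 0.25. Other probe sets of sym-1 and fbn-1 differed by −0.33 and −0.47 and were not called, and that of lpr-3 differed by −1.26 (adjusted p 0.084). In the 51 genes of these matrix families 6 fell and none rose, and the family median was 0.03, or −0.03 after cyclic loess. hch-1, the protease that digests the eggshell at hatching, fell from 7.94 and 8.28 to 5.84 and 6.35. Of 81 hedgehog-related and Patched-related genes, secreted and membrane proteins of the epidermis, grd-5, wrt-10, ptr-14 and grl-4 fell. They fell by 1.38 ± 0.13, 1.26 ± 0.21, 0.76 ± 0.13 and 0.67 ± 0.11, and were 4.94% of the family, against 0.713% of all genes. The family as a whole was not lower: 52 of the 81 were higher and 29 lower, with a median of 0.08. The calls of dpy-14 and noah-1 stood without any 1 array, and that of dpy-17 had an adjusted p of 0.228 without the first cholesterol array. Without that array the adjusted p was 0.0639 for grd-5 and 0.253 for wrt-10, and without the second deprived array 0.264 for ptr-14. The call of grl-4 was lost without any 1 of the 8 arrays.

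Several developmental regulators fell with them and were likewise picked from the calls. The Distal-less homeobox gene ceh-43 fell from 7.72 and 7.93 to 5.6 and 5.59, by 2.23 ± 0.28. The cyclin D gene cyd-1 fell by 1.22 ± 0.16, the beta-catenin sys-1 by 0.92 ± 0.15 and the zinc finger gene blmp-1 by 1.0 ± 0.11. A second probe set disagreed in direction for blmp-1, at 0.11, and gave −0.59 for cyd-1 and −0.82 for sys-1, none of them called.

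Embryos held by the mother are a source of such transcripts, so markers of zygotic embryos were read beside them. Of 53 measured, ztf-11, sdz-10 and sdz-30 fell and 36 were lower, with a median of −0.09. These calls were lost when any 1 of the 4 fed arrays was left out, and that of sdz-30 without any 1 of the 8. Other probe sets of ztf-11 differed by −0.53 and −1.04 and were not called. The lowest was sdz-24 at −1.62 and the highest sdz-27 at 0.36. Their summed intensity, in which the brightest members weigh most, was 22556 and 21787 with cholesterol and 22261 and 21545 without. Of the 53, 18 had an unadjusted p under 0.05. The early zygotic genes pes-10, end-1 and med-1 differed by −0.26, −0.09 and −0.05. Of 36 germline and oocyte markers none was called by limma, none had an unadjusted p under 0.05, and their summed intensity was 150769 and 159282 against 153822 and 160748. Of 16 epidermis markers 12 were lower and none was called, with a median of −0.19 and sums of 5645 and 6888 with cholesterol against 5243 and 5974 without. The part of embryo content and of epidermis in the fall of the matrix genes was not tested.

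Genes of the F-box B family, proposed substrate adaptors of ubiquitin ligases, were mostly lower. The family was singled out after its values were seen. Of 95 measured, fbxb-90, fbxb-85, fbxb-3 and fbxb-70 fell, by 1.31, 1.26, 1.24 and 0.93. In all 81 of 95 were lower, with a family median of −0.31, and 42 of 95 had an unadjusted p under 0.05. After cyclic loess 85 were lower, and 76 after a shift by bright probe sets. With a pseudocount of 16 the median was −0.20. Without the dimmest 40% of probe sets, by their mean over all arrays, it was −0.73 over the members left. A member can pass that filter by being bright in control worms, so −0.73 is not a larger fall of the same 95 genes. fbxb-90 went from 7.14 and 6.98 to 5.66 and 5.84, and fbxb-3 from 7.46 and 7.34 to 6.23 and 6.10. The Skp1-related gene skr-21, of the same ligase complex, fell by 2.06 ± 0.32. Among 171 F-box A genes fbxa-157 and fbxa-24 rose, by 1.49 ± 0.10 and 0.80 ± 0.12, which was 1.17% against 0.572% of all genes. The F-box A median was 0.05, that of all genes. By limma the F-box B family held 0 calls without the first cholesterol array or without either deprived array, while its median lay between −0.36 and −0.23 whichever array was left out.

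**Figure D4:**
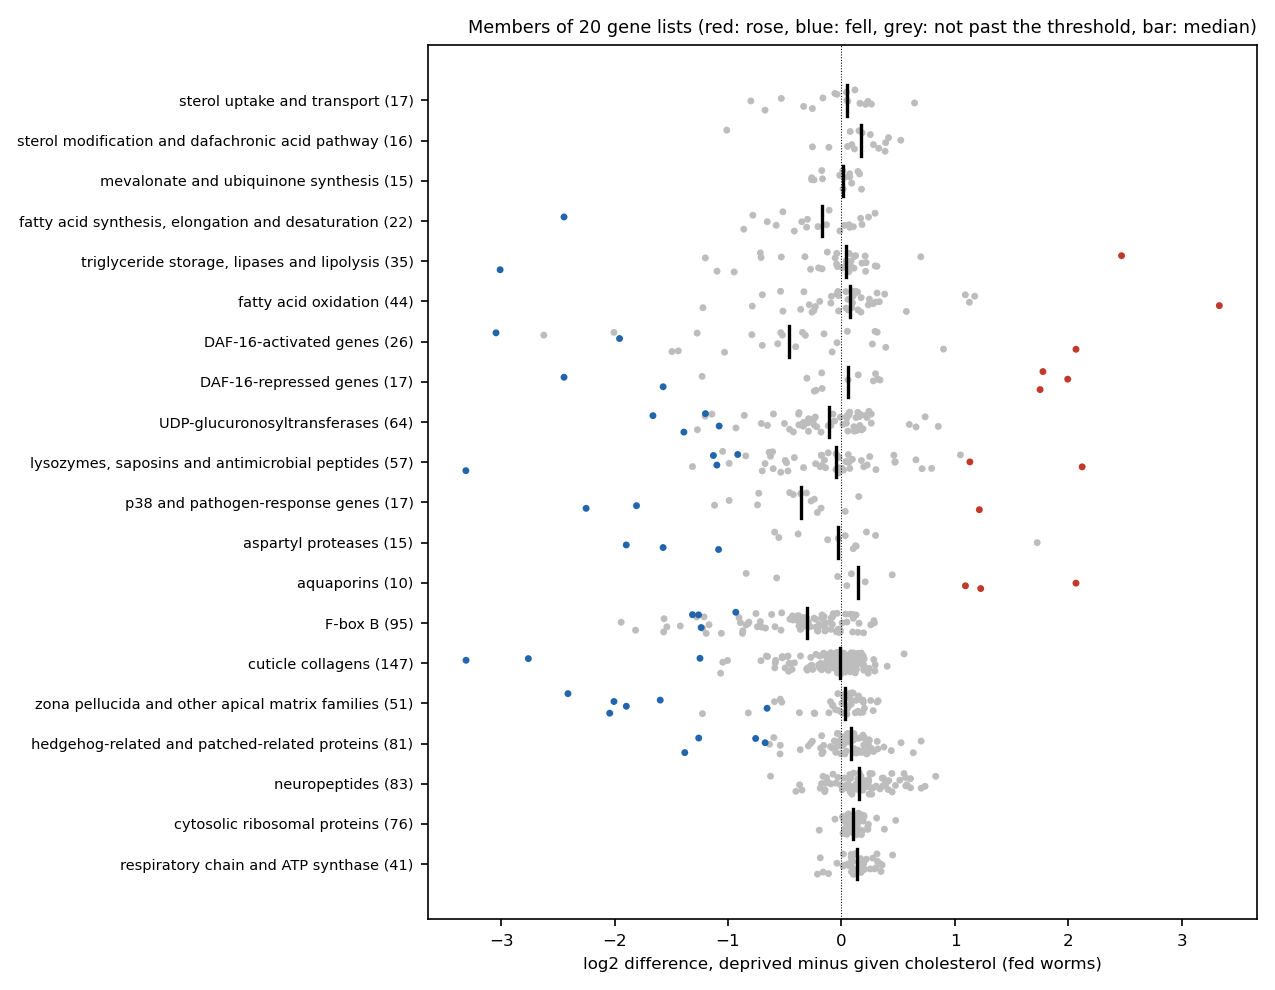
Each point is 1 gene, with its log2 difference between deprived and cholesterol-fed worms on the x axis, and each row is 1 of 20 lists with the number measured in brackets. Red points rose, blue points fell, grey points did not pass the test, and the black bar is the list's median, −0.46 for DAF-16-activated genes and −0.31 for F-box B. The lists of aspartyl proteases, aquaporins, F-box B and apical matrix families were added after the values were seen.

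Markers of tissues were read as whole lists. All 16 pharynx markers were higher, under each of the 3 scalings, with a median of 0.19. myo-1, a myosin of pharyngeal muscle, rose by 0.99 ± 0.15, with a second probe set at 0.37 that was not called, and an adjusted p of 0.217 without the first cholesterol array. Summed intensity of the pharynx list was 1319 and 1357 with cholesterol and 1991 and 1741 without. Of 18 body wall muscle markers 15 were lower and none was called, with a median of −0.27 and sums of 22817 and 23310 against 17792 and 18383. Of 17 intestine markers pept-1 rose, 11 were higher and the median was 0.24. An unadjusted limma p under 0.05 was reached by 3092 of all 22548 probe sets and by 12 of these 17 markers. Their sums were 31566 and 29093 against 26080 and 24108, so the sum and the median moved in opposite directions. None of 16 epidermis, 20 neuron or 15 coelomocyte, uterus and somatic gonad markers was called, with 3, 5 and 1 at an unadjusted p under 0.05. Of the epidermis markers 12 were lower, with a median of −0.19, and of the neuron markers 15 were higher, with a median of 0.23. The part of tissue proportions in the gene changes was not tested.

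Sperm markers separated 1 array from the rest. Their summed intensity was 13857 in the first cholesterol array and 8642 in the second, against 8602 and 8386 in deprived worms. None of 67 was called, 12 had an unadjusted p under 0.05, and msp-31, a major sperm protein gene, read 8.69 and 7.47 with cholesterol and 6.64 and 6.78 without.

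Large groups of housekeeping and neural genes shifted by little. Beside the counts below, 3092 of all 22548 probe sets had an unadjusted limma p under 0.05. None of 76 cytosolic ribosomal protein genes was called, with 2 at an unadjusted p under 0.05. In all 74 were higher, with a median of 0.10, but after cyclic loess 54 were lower with a median of −0.05, so their direction depends on the scaling. Of 41 respiratory chain and ATP synthase genes 36 were higher and none was called, with 6 at an unadjusted p under 0.05. Of 83 neuropeptide genes 66 were higher, with a median of 0.16, or 0.12 after cyclic loess, and none was called, with 15 at an unadjusted p under 0.05. The neuropeptide median was 0.08 without the first deprived array and 0.25 without the second. Of 40 transthyretin-related genes, a large family of secreted proteins, ttr-21 and ttr-28 rose and ttr-44 fell. ttr-21 went from 8.40 and 8.38 to 10.01 and 9.97, by 1.60 ± 0.11. None of 32 genes of the endoplasmic reticulum and mitochondrial stress responses was called, nor any of 21 of the glyoxylate cycle, gluconeogenesis, trehalose and glycogen by its brightest probe set, with 1 and 6 at an unadjusted p under 0.05. The nearest was icl-1, the isocitrate lyase of the glyoxylate cycle, at 0.90 ± 0.16 (adjusted p 0.052). Its other probe sets stood at 1.01, which passed the test (adjusted p 0.027), and at 1.0 (adjusted p 0.077). The extracellular superoxide dismutase sod-4 rose by 0.74 ± 0.12, the 1 call among 28 genes of peroxide and superoxide defence. That call was lost without any 1 of the 8 arrays, with an adjusted p of up to 0.169.

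Genes of folate, tetrahydrobiopterin, inositol and cystathionine handling were among the remaining falls, picked from the calls. folt-2, a folate transporter, fell from 9.18 and 9.39 to 6.70 and 7.43, by 2.22 ± 0.25. cat-4, the GTP cyclohydrolase that starts tetrahydrobiopterin synthesis, fell by 1.02 ± 0.17, and ptps-1, the next enzyme, by 0.97 ± 0.11, from 7.11 and 6.97 to 5.99 and 6.15. hmit-1.1, a proton-coupled inositol transporter, fell by 1.86 ± 0.26. cbl-1, a cystathionine beta-lyase, fell by 1.15 ± 0.11 and its second probe set by 1.47. Of 7 measured tetrahydrobiopterin genes, a list added after the values were seen, cat-4 and ptps-1 were called. In that list 3 genes were higher and 4 lower, with a median of −0.01.

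The called genes were then read in fasted worms, whose arrays share none with the fed comparison. There deprivation changed 249 probe sets and 199 genes (1.16%). Of the 98 genes that rose in fed worms, 89 were higher in deprived fasted worms, 48 rose there and 2 fell. Their median change was 1.17 in fed and 0.91 in fasted worms. Of the genes that fell in fed worms, 109 were lower and 13 higher in deprived fasted worms, 12 fell there and 1 rose. Their median was −1.21 in fed and −0.46 in fasted worms. In all 63 genes were called in both, 60 of them in the same direction, which was 28.6% of the fed and 31.7% of the fasted calls. The medians of fed worms belong to genes selected for a change in fed worms.

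Some genes rose in both feeding states. R07C12.1 rose by 3.22 in fed and 4.14 in fasted worms, from 3.90 and 4.32 to 8.36 and 8.14 in the latter. C15H9.11, picked from the calls, rose by 2.05 and 2.15, ttr-21 by 1.60 and 2.63, dod-23 by 1.99 and 1.49, pept-1 by 1.78 and 1.13, ins-7 by 1.75 and 2.92 and ifas-2 by 2.33 and 1.97. sptl-2 rose by 1.02 and 0.92. Falls in both states were seen for asp-13, by 1.57 and 1.61, ttr-44, by 1.63 and 1.77, ugt-43, by 1.39 and 1.67, and grd-5, by 1.38 and 1.18. No difference between feeding states passed the test for these genes.

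A test of the difference itself called 22 probe sets and 18 genes (0.105%), 9 with a fed effect above the fasted one and 9 below. The 3 with the largest positive difference, adh-1, aqp-1 and acs-2, rose in deprived fed worms and read high in fasted worms with or without cholesterol. adh-1 read 12.28 and 12.66 in fasted worms given cholesterol and 11.04 and 12.03 in deprived ones, so its effects were 3.16 and −0.94 and differed by 4.10. acs-2 read 10.86 and 11.34 against 11.28 and 11.24, with effects of 3.33 and 0.15. aqp-1 read 11.29 and 11.15 against 9.85 and 10.31, with effects of 2.07 and −1.14. In each of the 3 genes all fasted arrays lay above both fed arrays given cholesterol. lips-11, with the next largest difference, was low in all fasted worms, at 5.32 and 5.29 with cholesterol and 5.26 and 5.18 without.

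Among negative differences cnc-7 and lips-14 fell in deprived fed worms and were low in all fasted worms. cnc-7 read 5.53 and 5.82 in fasted worms given cholesterol and 5.76 and 6.38 in deprived ones, and its effects differed by −3.70. lips-14 read 4.60 and 4.48 against 4.4 and 4.22, near the lower quartile of all values. noah-1 fell by 2.41 in fed worms and differed by −0.67 in fasted ones. cnc-4 fell by 1.10 in fed worms and rose by 0.86 in fasted ones, and srlf-3 rose by 1.17 and 3.23. This test rested on all 8 arrays: without the first cholesterol array of the fed or of the fasted worms limma called 0 probe sets, with 1311 and 1698 at an unadjusted p under 0.05.

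**Figure D5:**
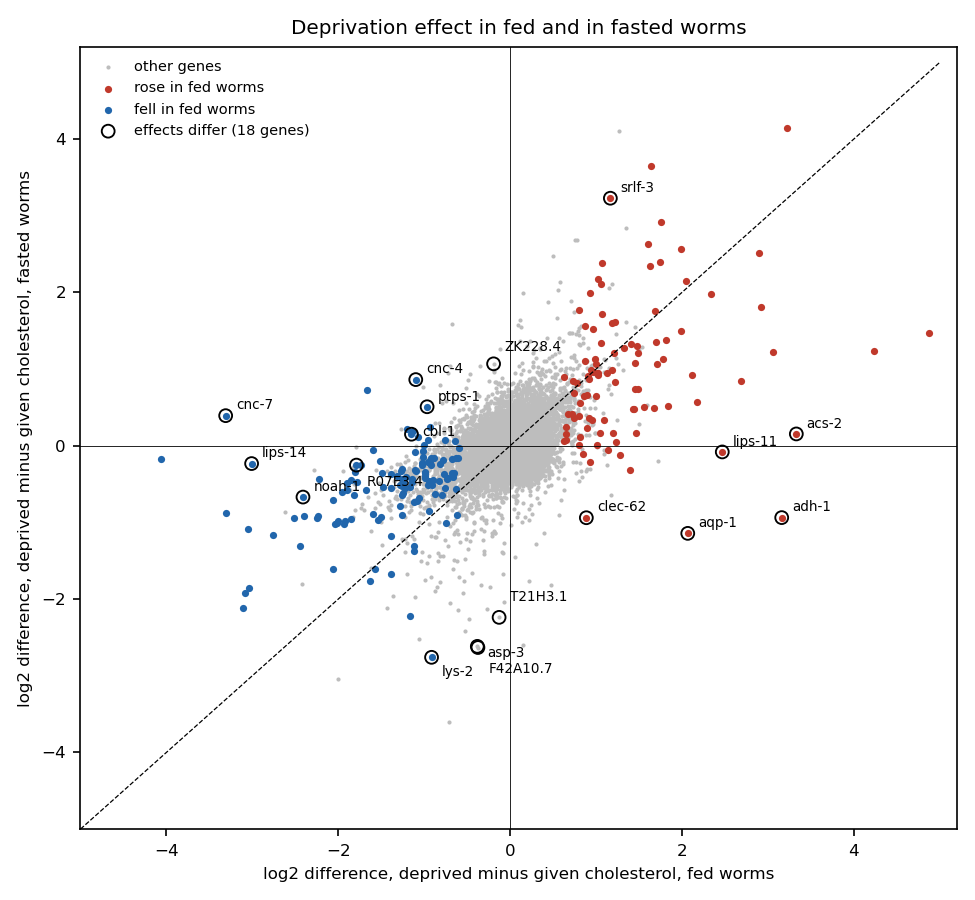
Each point is 1 gene, with the log2 effect of deprivation in fed worms on the x axis and in fasted worms on the y axis, and the dashed line marks equal effects. Circles mark the 18 genes whose effects differed, among them adh-1 (3.16 and −0.94) to the right of the line and cnc-7 (−3.31 and 0.39) to its left.

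Set beside the level in fasted worms given cholesterol, 65 of the 98 risen genes read higher there than in fed worms given cholesterol, and of the fallen genes 103 read lower and 19 higher. Both readings use the same 2 fed control arrays, so they are given side by side and not as a result. Of the 220 called genes 8 pairs were neighbours in the RefSeq gene order, 5 pairs with both risen, 3 with both fallen and none with opposite changes. They included pud-3 with pud-4, the receptor genes srr-6 with srr-4, R07C12.1 with K08D10.14, and C10C5.3 with C10C5.4. For 37 of the called genes the array held 43 further probe sets, of which 41 differed in the same direction as the gene and 19 were called. The exceptions were 1 probe set each of blmp-1 and mlt-11. Among called genes 9 of those that rose and 4 of those that fell had 1 fed group with a mean below the lower quartile of all values, where a log2 change is understated.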

How the data were processed

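RNA of whole worms was hybridised to 8 1-colour Affymetrix arrays, 2 for each of 4 groups. The deposited values are intensities on a linear scale, normalised by RMA per the submitters' processing notes, with no version or annotation build given in the sources used here. log2 values were computed from the deposited intensities as log2(intensity + 1), after 77 Affymetrix control probe sets were left out of 22625. limma 3.58.1 in R 4.3.3 fitted 1 mean per group over all 8 arrays (lmFit and eBayes, 4 residual and 3.37 prior degrees of freedom), so that the 4 fasted arrays added to the estimate of spread. Tests were two-sided, adjusted over 22548 probe sets. Precision is limited by how few arrays there are, 2 a group. The fit was also tested on simulated data.

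The platform annotation gave 1 symbol to 20766 probe sets, several to 887 and none to 895. RefSeq's gene table (WBcel235, names and gene order only) matched 20701 of the 20766. Each of 17118 genes was represented by its brightest probe set.

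The arrays, lists and genes were chosen with earlier results of these data known, and 7 of the lists were added after the fed values were seen. Named were the 12 largest rises and falls among called genes whose groups did not overlap, and the 6 largest differences each way. Up to 4 members of lowest p were named in each of 36 gene and 9 marker lists. Also named were 26 stated genes and genes said in the text to be picked afterwards. Promoter sequences were not used here, so a planned motif search was not run. Replicate numbers were not treated as pairs: the labels do not say that a number marks a shared day, and there are only 2. The alternatives were a replicate block, own arrays only, 2 other scalings, a pseudocount of 16, an intensity trend, and each array left out. A filter on the dimmest 40% and a filter on probe sets with identifiers ending in _s_at, _x_at, _a_at or _r_at were also used. The latter went by the identifier and not by the number of symbols. It left 21 of the 72 named calls untested, among them H39E23.3, cnc-7 and ftn-1. Figures were drawn with matplotlib 3.10.9.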

Additional observations from a re-analysis of the deposited data

Results flagged for a closer look

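For 18 genes the effect of deprivation differed between fed and fasted worms by limma's test of the difference, with Benjamini-Hochberg adjustment over all probe sets. Differences below are the fed effect minus the fasted effect on the log2 scale. The 9 positive ones were adh-1 (4.10, adjusted p 0.037), aqp-1 (3.21, 0.018), acs-2 (3.18, 0.048), lips-11 (2.55, 0.040), F42A10.7 (2.26, 0.018), the cathepsin D-like protease asp-3 (2.23, 0.028), T21H3.1 (2.11, 0.035), the lysozyme lys-2 (1.85, 0.039) and clec-62 (1.83, 0.024). In F42A10.7, asp-3, T21H3.1 and lys-2 the larger effect was a fall in fasted worms, by 2.63, 2.62, 2.24 and 2.76. In clec-62 the effects had opposite signs, 0.89 in fed and −0.94 in fasted worms, both called.

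The 9 negative ones were ZK228.4 (−1.26, adjusted p 0.048), cbl-1 (−1.30, 0.045), ptps-1 (−1.47, 0.039), R07E3.4 (−1.54, 0.039), noah-1 (−1.74, 0.040), cnc-4 (−1.96, 0.018), srlf-3 (−2.06, 0.018), lips-14 (−2.78, 0.018) and cnc-7 (−3.70, 0.018). R07E3.4 fell by 1.79 in fed worms and differed by −0.25 in fasted ones. ZK228.4 differed by −0.19 in fed worms and rose by 1.07 in fasted ones. In cnc-4 both effects were called with opposite signs, −1.10 and 0.86. The number of probe sets called fell from 22 to between 0 and 8 when any 1 array was left out.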

How the results depend on the processing

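The count of probe sets called by limma for deprivation in fed worms, 273, was 988 with the replicate block, with all 273 among them, and 177 with a pseudocount of 16. It lay between 210 and 402 under the other settings that kept all arrays of the comparison, and between 25 and 284 with 1 array left out. In fasted worms the count of 249 was 785 with the block, 78 on their own arrays, and 61 to 157 with 1 array left out. The count of 22 differences was 115 with the block, 7 with a pseudocount of 16, 42 with an intensity trend, and 0 to 8 with 1 array left out. Same-numbered arrays of the 2 fed groups deviated together at a correlation of 0.53, and at 0.22 to 0.53 over the 6 pairs of groups. The labels name no shared day or culture, and the source of the correlation was not tested. Another scaling moved the median of all genes from 0.05 to −0.00 or 0.08. Of 72 named genes called in fed worms none reversed under any setting in which it was tested, which says little. The block, own arrays, the trend and leaving out a fasted array do not alter the fed difference. Leaving out a fed array cannot turn its sign where the groups do not overlap. The call was kept by 72 with the block, 52 on fed arrays alone, 68 under either scaling and 67 with the trend. It was kept by 15 without the first and 24 without the second cholesterol array, and by 17 and 30 without the first and second deprived array. With 2 arrays a group, a gene not called is not shown to be unchanged, and dim genes have understated changes.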

Other observations

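Some called genes belonged to no list above and were picked after their values were seen. lec-2, a galectin, read 10.50 and 10.63 in fed worms given cholesterol and 12.02 and 12.06 in deprived ones, a rise of 1.48 ± 0.16 with an adjusted p of 0.0094 by limma. Its other probe sets rose by 1.49 and 1.41, and lec-2 rose by 1.30 in fasted worms. zig-3, a secreted immunoglobulin-domain protein known from neurons, rose from 6.83 and 6.66 to 8.24 and 8.12. Sensory genes rose by less: odr-10, the diacetyl receptor, by 0.80 ± 0.13 and lite-1, a light receptor, by 0.65 ± 0.11. The glutamine-rich and asparagine-rich domain genes pqn-31 and pqn-94 rose by 1.07 and 1.05 in fed and by 2.38 and 2.11 in fasted worms.

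Astacin metalloproteases, among them hch-1, were a list added after the values were seen, in which 1 of 36 rose and 2 fell. nas-25 rose from 4.04 and 3.91 to 5.03 and 5.04, near the lower quartile of all values, and nas-20 fell from 8.30 and 8.20 to 6.15 and 6.22. Muscle and junction genes were among the smaller falls. unc-87, a calponin-like protein of body wall muscle filaments, fell by 0.74 ± 0.13, with other probe sets at −0.62 and −0.65 that were not called. dlg-1, a scaffold of epithelial junctions, fell by 0.78 ± 0.11, with a second probe set at −0.42 that was not called.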
